A study of Mus musculus with 6 samples.

Results

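The axon guidance ligands and receptors were 70 of the 23038 genes measured in NSC-34 cells, and they were chosen by symbol, not by level. They covered the semaphorins of classes 3 to 7 (20 genes), the plexins (9), the neuropilins (2), the Slits (3) and their Robo receptors (4), the netrins (4) and the netrin receptors (6), and the ephrin-A (5), EphA (9), ephrin-B (3) and EphB (5) families. NSC-34 is a mouse hybrid line derived from the fusion of a neuroblastoma with motor neurons of the spinal cord, and it was grown here in DMEM with 10% FCS. The 3 libraries of the siNC group came from cells given control siRNA, and the 3 libraries of the siQk group from cells given siRNA against Qk, the gene of the Quaking RNA-binding proteins. Different siRNAs for Qk were used, and which library received which is not given in the sources used here. Poly-A RNA was sequenced from cultures that the study describes as independent. All 6 libraries carry the same hybrid line, so the levels below describe that line and not motor neurons of the spinal cord.

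Growth cones steer by reading proteins that other cells secrete or display. Slits act through Robo receptors, netrins through Dcc, neogenin and the Unc5 receptors, semaphorins through plexins with neuropilins as coreceptors for most of class 3, and ephrins through the Eph receptor tyrosine kinases, with ephrins themselves also able to signal into the cell that carries them. Spinal motor neurons use all of these systems as their axons leave the cord and choose a path in the limb. Quaking proteins bind RNA at a short core element and act on splicing, stability and translation. The comparison of siQk with siNC asks whether the total level of each gene's transcripts differed when Qk was reduced. Differences in splicing within a gene are not measured by these totals.

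Qk had 9.67, 8.18 and 14.9 RPKM (counts per unit of exon length and of library total) in siNC and 1.39, 1.71 and 1.10 RPKM in siQk, so the knockdown was visible in every library and left 12.8% of the siNC mean. Library totals ran from 43000503 to 53565950 counts. On principal components of log2 CPM (counts scaled to a common library total), siQk replicate 2 stood apart on the component with 41.2% of the variance and siNC replicate 3 on the next, with 28.9%. Of the motor neuron markers, 7 of 12 were abundant enough to test, with Chat, Mnx1 and Slc5a7 near 0, and their summed level was 16.5 to 18.1 RPKM in siNC and 21.4 to 23.2 RPKM in siQk. Of the 7 tested motor neuron markers, 5 had a higher and 2 a lower mean log2 level in siQk. Isl1 and Lhx4 were the motor neuron markers at an unadjusted p under 0.05 in the edgeR quasi-likelihood test, both with higher means in siQk (2 of 7, 28.6%, where all genes had 2.89%), and DESeq2 called Isl1 (adjusted p = 0.0328). Other neuronal markers summed to 406 to 765 RPKM in siNC and 593 to 777 RPKM in siQk, with Stmn2 near 0 and Dcx listed at 0, and neuroblastoma markers to 332 to 528 and 398 to 494 RPKM. The summed levels in siNC and siQk were 1.83 to 2.59 and 2.21 to 2.84 RPKM for astrocyte markers, 9.57 to 11.1 and 7.02 to 10.8 RPKM for oligodendrocyte markers, and 0.849 to 1.71 and 0.661 to 2.30 RPKM for microglial markers. They were 9.59 to 11.9 and 5.92 to 10.8 RPKM for endothelial markers, and 9.76 to 14.8 and 3.57 to 11.3 RPKM for fibroblast markers, whose collagens Col1a1, Col1a2 and Col3a1 were near 0. Of the fibroblast markers, Pdgfrb had a lower mean in siQk (edgeR quasi-likelihood test, unadjusted p = 0.0356). Whether any of these differences has a part in the results below was not tested, and fewer cells of a type and less RNA per cell cannot be told apart in bulk RNA.

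Of the 70 guidance genes, 39 had a mean of 1 RPKM or more over the 6 libraries, 24 lay below that level and 7 were listed at 0 in every library. The 7 were Dcc, Unc5d, Robo4, Plxna2, Sema3d, Efnb1 and Epha4. In all, 5050 of the 23038 genes were listed at 0 throughout, among them the broadly used genes Dock1, Mtm1 and Nedd4l, picked out after their values were seen, so a 0 is given here as the listed value only. The families differed in how much of them was present. All 3 Slits, both neuropilins, 14 of 20 semaphorins, 7 of 9 plexins, 4 of 6 netrin receptors and 4 of 5 ephrin-A genes reached 1 RPKM, against 1 of 4 Robo genes, 1 of 4 netrins, 1 of 9 EphA genes, 1 of 5 EphB genes and 1 of 3 ephrin-B genes. On the length-scaled RPKM, the summed means per family were highest for the Slits (142 RPKM), the semaphorins (116 RPKM), the plexins (102 RPKM) and the netrin receptors (78.8 RPKM), and lowest for the Robo receptors (3.00 RPKM), the netrins (2.54 RPKM) and the ephrin-B ligands (1.81 RPKM).

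**Figure D1:**
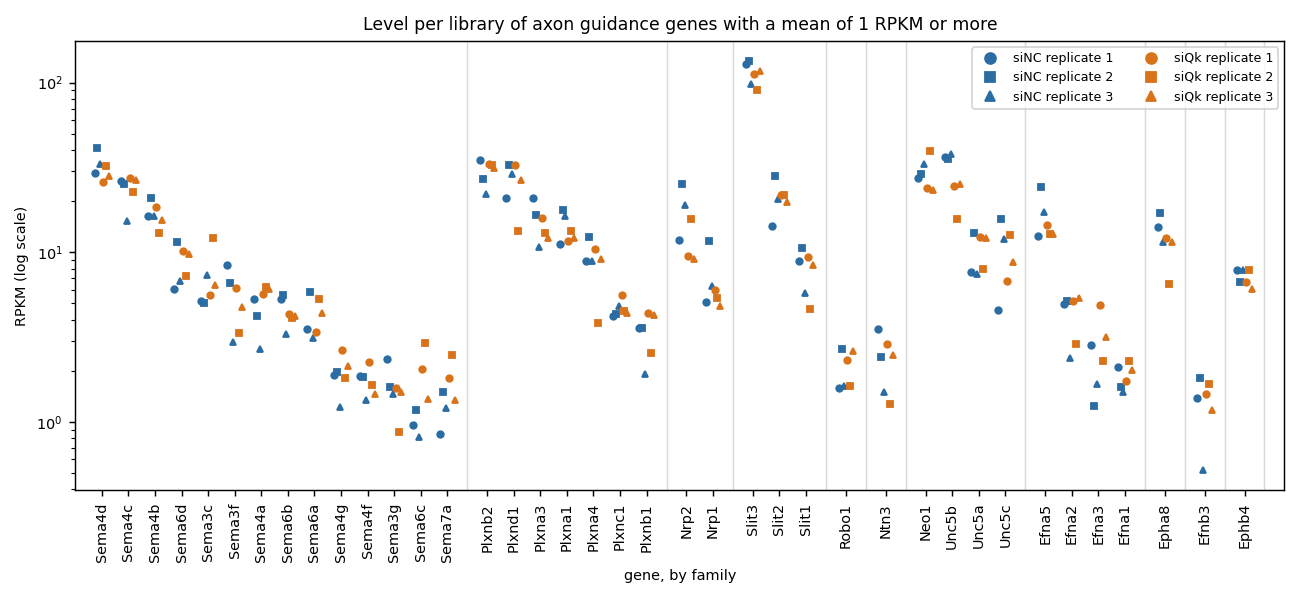
RPKM (log scale) of each of the 39 guidance genes with a mean of 1 RPKM or more, grouped by family, with 1 point for each library (blue, siNC; orange, siQk; the symbol gives the replicate). Slit3 lies above all other genes in every library, between 90.9 and 134 RPKM, and for most genes the blue and orange points overlap.

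The core element bound by Quaking proteins was searched in the 3′ untranslated regions of the same genes, as the letters ACTAAC or ACTAAT on the transcribed strand of 1 GENCODE transcript per gene (GRCm38). These letters are in 23 of the 70 guidance genes (32.9%) and in 6192 of 20996 protein-coding genes (29.5%). Of the 47 guidance genes abundant enough to test, 14 (29.8%) hold them, against 30.6% of the 10994 tested genes with such a region and 37.5% of the tested genes whose region is of similar length. The 70 guidance genes have longer regions (median 1356 against 803 bases for all protein-coding genes), and per kilobase they hold 0.330 matches against 0.363. The windows below are from Qk itself, the target of the siRNA (the 2 with ACTAAC of its 5 matches), from Slit3 and Slit2, the most abundant Slits, from Neo1, an abundant netrin receptor, and from Nrp2, the only gene among the 4 with the smallest p that holds a match. Each is read 5′ to 3′ on the transcribed strand, and the capitals mark the searched letters.
Qk (chr17:10206538-10206567, minus strand): taataccaacctACTAACtctggactatgt
Qk (chr17:10206455-10206484, minus strand): ttgagttcctggACTAACactgaagaacgt
Slit3 (chr11:35708471-35708500, plus strand): caaagaaaaaacACTAATaaaaatgtttta
Slit2 (chr5:48304288-48304317, plus strand): tgaccatgttggACTAATtcatgcttcata
Slit2 (chr5:48305156-48305185, plus strand): tttggcaatagtACTAACataggatgttat
Neo1 (chr9:58875689-58875718, minus strand): gaaaagtataagACTAACcctcaggcctca
Nrp2 (chr1:62818381-62818410, plus strand): acgctctcccggACTAACtggtccacaggg
Unc5b, Sema6c and Ephb3 hold neither form in regions of 2615, 736 and 788 bases. The median log2 fold change of siQk over siNC was 0.036 for the 14 tested guidance genes with a match and -0.18 for the 33 without, and -0.0034 and 0.0046 for all tested genes with and without. A match of letters is a description of the sequence and does not show binding.

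The Slits, secreted repellents of commissural and motor axons, had the highest summed level of the ligand families. Slit3 had 129, 134 and 98.0 RPKM in siNC and 112, 90.9 and 117 RPKM in siQk. The groups overlapped, and the log2 fold change was -0.20 (SE 0.16, unadjusted p = 0.268, edgeR quasi-likelihood test). Slit2 had 14.2, 28.1 and 20.6 RPKM in siNC and 21.8, 21.8 and 19.7 RPKM in siQk, so the siNC libraries enclosed the siQk libraries. Its log2 fold change was -0.013 (SE 0.28), which is within the spread between libraries. Slit1 averaged 8.40 ± 2.45 RPKM in siNC (SD, n = 3) against 7.44 ± 2.50 RPKM in siQk (SD, n = 3).

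The receptors of the Slits were far less abundant than the ligands on the same RPKM scale. Robo1 had 1.58, 2.69 and 1.63 RPKM in siNC and 2.33, 1.62 and 2.61 RPKM in siQk, with overlapping groups and a log2 fold change of 0.14 (SE 0.31). Robo2 had 0.559, 0.898 and 0.937 RPKM in siNC and 0.750, 0.960 and 0.711 RPKM in siQk, a log2 fold change of -0.012 (SE 0.28). Robo3, a receptor that modulates Slit responses at the midline, averaged 0.122 RPKM. The order of Slit3, Slit2, Robo1 and Robo2 was the same in 6 of 6 libraries. Within a library, Slit3 was 4.18 to 9.10 times Slit2, Slit2 was 7.53 to 13.4 times Robo1, and Robo1 was 1.69 to 3.67 times Robo2. The gene pairs for these ratios, and for those below, were chosen after the values were seen.

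Of the netrins, the attractants and repellents released at the floor plate and elsewhere, only Ntn3 reached 1 RPKM. It had 3.54, 2.39 and 1.50 RPKM in siNC and 2.88, 1.28 and 2.49 RPKM in siQk, a log2 fold change of -0.18 (SE 0.49). Ntn1, the best known of the family, had 0 to 3 counts per library, as had Ntn4. Ntn5 had 0.412, 0.148 and 0.0443 RPKM in siNC and 0.321, 0.0356 and 0.124 RPKM in siQk, with 23.4% of its exonic bases shared with a gene on the other strand, which these unstranded libraries cannot separate. Of this family, Ntn3 alone was abundant enough to test.

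Unc5b, a repulsive netrin receptor (Entrez 107449, chr10:60762593-60831581 of GRCm38, minus strand), had the smallest p of the guidance genes. It had 36.4, 35.7 and 38.0 RPKM in siNC and 24.6, 15.7 and 25.2 RPKM in siQk. Every siQk library was below every siNC library, and the siNC libraries lay close together (36.7 ± 1.21 RPKM against 21.8 ± 5.33 RPKM, SD, n = 3 each). The log2 fold change was -0.78 (SE 0.23, unadjusted p = 0.0032, edgeR quasi-likelihood test), and adjusted over all 12665 genes tested it did not pass the threshold (adjusted p = 0.9996, and at least 0.294 in each of 16 alternative fits). With each library left out in turn the log2 fold change ran from -0.90 to -0.59, and without both siNC replicate 3 and siQk replicate 2 it was -0.53. The exact permutation p was 0.1, the smallest that 20 arrangements of 3 against 3 allow.

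The other netrin receptors tested had overlapping groups. Neo1, which encodes neogenin, had 27.5, 29.1 and 33.1 RPKM in siNC and 23.8, 39.6 and 23.1 RPKM in siQk. The siQk libraries lay on both sides of the siNC libraries, and the log2 fold change was -0.082 (SE 0.27). Unc5c had 4.55, 15.7 and 11.9 RPKM in siNC and 6.80, 12.6 and 8.76 RPKM in siQk, with a log2 fold change of -0.22 (SE 0.60). Its siNC libraries differed by more than its groups did, with an SD of 0.941 on the log2 CPM scale. Unc5a averaged 9.35 ± 3.12 RPKM in siNC and 10.8 ± 2.48 RPKM in siQk. Neo1 was 0.754 to 0.871 times Unc5b in the siNC libraries and 0.919, 0.968 and 2.52 times Unc5b in the siQk libraries. This ratio reflects the lower Unc5b values of siQk and also Neo1 itself. In siQk replicate 2, which had the ratio of 2.52, Neo1 was at its highest and Unc5b at its lowest of all libraries. The summed level of the 6 netrin receptor genes was 76.1, 93.4 and 90.5 RPKM in siNC and 67.6, 75.8 and 69.3 RPKM in siQk, with siNC replicate 1 and siQk replicate 2 nearly equal (exact permutation p = 0.1). It was the only family sum of 11 (9.09%) at that p, the others having 0.2 or more, and of the difference of -15.8 RPKM between the means -14.9 RPKM was Unc5b.

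**Figure D2:**
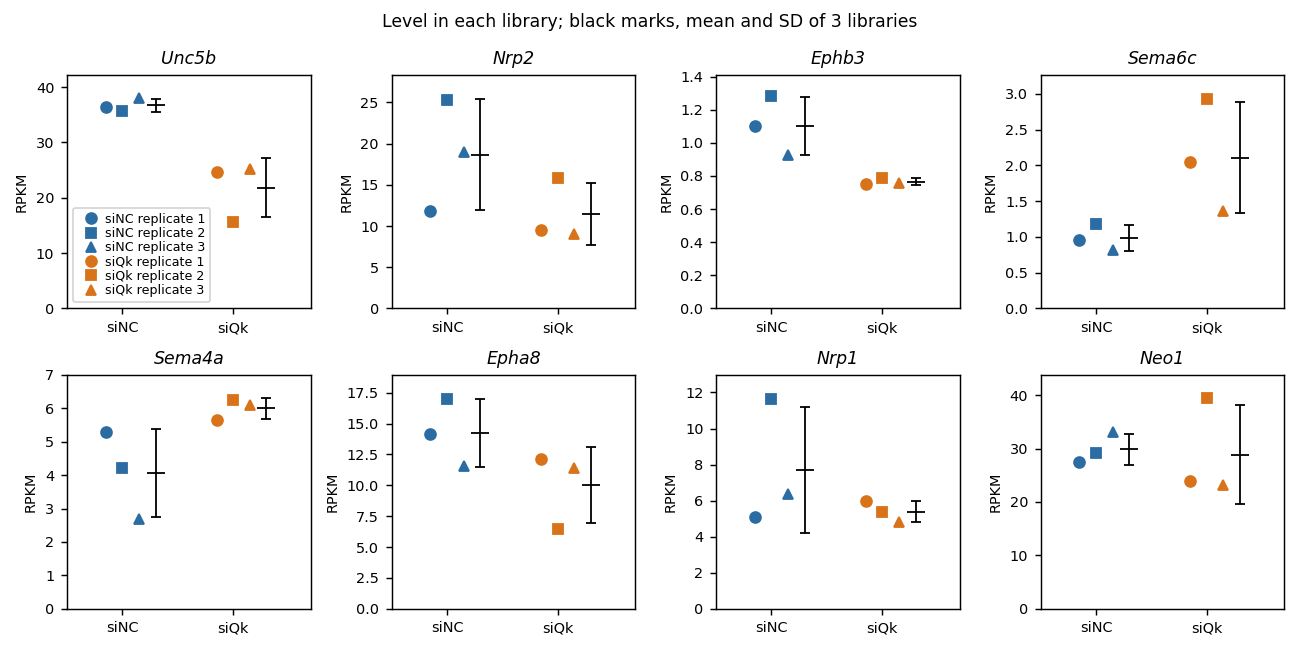
RPKM per library for 8 guidance genes, siNC (blue) beside siQk (orange), with the mean and SD of 3 libraries in black and each axis starting at 0. Unc5b, Ephb3, Sema6c and Sema4a show no overlap between groups, while Nrp2, Epha8, Nrp1 and Neo1 do overlap.

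Among the semaphorins, class 4 transmembrane members were the most abundant. Sema4d, a ligand of plexin-B receptors, had 29.5, 41.4 and 33.1 RPKM in siNC and 25.8, 32.4 and 28.0 RPKM in siQk, a log2 fold change of -0.29 (SE 0.16). Sema4c had 26.4, 25.2 and 15.2 RPKM in siNC and 27.5, 22.7 and 26.6 RPKM in siQk, a log2 fold change of 0.18 (SE 0.24). Sema4d was above Sema4c in 5 of 6 libraries, so their order was not constant. The secreted class 3 semaphorins, ligands of the neuropilin and plexin-A complexes, had means of at most 6.95 RPKM.

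Sema6c, a transmembrane semaphorin (Entrez 20360, chr3:95160457-95174024, plus strand), was the semaphorin with the smallest p. It had 0.958, 1.18 and 0.815 RPKM in siNC and 2.04, 2.92 and 1.36 RPKM in siQk. The groups did not overlap, and the means were 0.983 ± 0.181 and 2.11 ± 0.781 RPKM (SD, n = 3 each). Its log2 fold change was 1.08 (SE 0.33, unadjusted p = 0.0084, adjusted p = 0.9996, edgeR quasi-likelihood test), from 0.77 without siQk replicate 2 to 1.31 without siQk replicate 3. Without siQk replicate 2 and siNC replicate 3 together the log2 fold change was 0.68 (unadjusted p = 0.0524).

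Sema4a, which acts in immune cells as well as on growth cones, had 5.29, 4.21 and 2.69 RPKM in siNC and 5.65, 6.24 and 6.10 RPKM in siQk. These groups also did not overlap, though the highest siNC library was close to the lowest siQk library, and the log2 fold change was 0.54 (SE 0.26, unadjusted p = 0.0525, edgeR quasi-likelihood test). It was 0.33 (unadjusted p = 0.129) without siNC replicate 3 and 0.78 without siNC replicate 1. Sema3e, a ligand of Plxnd1, had 0.198, 0.196 and 0.320 RPKM in siNC and 0.187, 1.60 and 0.141 RPKM in siQk. Its log2 fold change of 1.40 (SE 1.12) came with an SD of 1.88 on the log2 CPM scale within siQk, and without siQk replicate 2 it was -0.57. A single library thus set its direction.

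Plexins, the signalling receptors of the semaphorins, had 7 members at 1 RPKM or more, and each of the 7 had a log2 fold change between -0.38 and 0.29. Plxnb2 had 35.0, 27.2 and 22.1 RPKM in siNC and 32.9, 32.5 and 31.2 RPKM in siQk, a log2 fold change of 0.18 (SE 0.17) that was 0.049 without siNC replicate 3 and 0.36 without siNC replicate 1. Plxnd1 had 21.0, 32.5 and 28.9 RPKM in siNC and 32.9, 13.3 and 26.8 RPKM in siQk, with a log2 fold change of -0.20 (SE 0.44) that became 0.094 without siQk replicate 2. The order of this pair was not constant, with Plxnb2 0.765 to 2.43 times Plxnd1. Plxna4 had 8.84, 12.3 and 8.84 RPKM in siNC and 10.5, 3.81 and 9.14 RPKM in siQk, where siQk replicate 2 alone was low. The log2 fold change of Plxna4 was -0.38 with all libraries and -0.049 without that library.

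Neuropilins lack a signalling domain of their own and bring class 3 semaphorins, or VEGF, to other receptors. Nrp2 (Entrez 18187, chr1:62703285-62818695, plus strand) had 11.8, 25.2 and 18.9 RPKM in siNC and 9.47, 15.8 and 9.06 RPKM in siQk. Its groups overlapped, with siNC replicate 1 below siQk replicate 2. The log2 fold change was -0.73 (SE 0.41, unadjusted p = 0.0323, adjusted p = 0.9996, edgeR quasi-likelihood test), with -1.03 when siQk replicate 2 was left out and -0.49 (unadjusted p = 0.148) when siNC replicate 2 was. Nrp1 had 5.08, 11.6 and 6.35 RPKM in siNC and 5.97, 5.34 and 4.81 RPKM in siQk, a log2 fold change of -0.53 (SE 0.35, unadjusted p = 0.0796) that was -0.14 without siNC replicate 2. Nrp2 was above Nrp1 in 6 of 6 libraries, by 1.59 to 2.98 times. Both neuropilins were highest in siNC replicate 2, and the fold changes of both were nearer to 0 without that library.

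The ephrin-A ligands are anchored to the membrane by a lipid and set up graded maps of axon terminals. Efna5, the most abundant, had 12.5, 24.4 and 17.3 RPKM in siNC and 14.5, 12.8 and 12.9 RPKM in siQk. Its groups overlapped, with a log2 fold change of -0.45 (SE 0.27, unadjusted p = 0.0732, edgeR quasi-likelihood test) and of -0.21 without siNC replicate 2. Efna2 had 4.97, 5.16 and 2.37 RPKM in siNC and 5.17, 2.87 and 5.39 RPKM in siQk, a log2 fold change of 0.089 (SE 0.44). Efna5 was 2.39 to 7.31 times Efna2 in the 6 libraries.

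Of the EphA receptors, Epha8 alone reached 1 RPKM. It had 14.1, 17.0 and 11.5 RPKM in siNC and 12.1, 6.45 and 11.4 RPKM in siQk, with overlapping groups and a log2 fold change of -0.53 (SE 0.32, unadjusted p = 0.0622, edgeR quasi-likelihood test). Leaving out siQk replicate 2 gave -0.29. The next was Epha10, an Eph receptor whose kinase domain is thought to be inactive, with 0.899, 1.22 and 0.547 RPKM in siNC and 0.920, 0.572 and 0.851 RPKM in siQk, a log2 fold change of -0.20 (SE 0.36). Epha7 averaged 0.213 RPKM, with an SD of 0.868 on the log2 CPM scale within siQk that came from siQk replicate 2 at 0.374 RPKM beside 0.119 and 0.142 RPKM. Epha4, a receptor through which motor axons of the limb are known to read ephrins, was listed at 0.

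Ephb4, a receptor of Efnb2 best known from vessels, had 7.86, 6.67 and 7.90 RPKM in siNC and 6.69, 7.84 and 6.10 RPKM in siQk, a log2 fold change of -0.15 (SE 0.15). Ephb3 (Entrez 13845, chr16:21204755-21223305, plus strand) had 1.10, 1.28 and 0.927 RPKM in siNC and 0.751, 0.789 and 0.757 RPKM in siQk. Every siQk library of Ephb3 was below every siNC library, and the siQk libraries were nearly equal (0.766 ± 0.0202 against 1.10 ± 0.177 RPKM, SD, n = 3 each). The log2 fold change was -0.55 (SE 0.10, unadjusted p = 0.0431, adjusted p = 0.9996, edgeR quasi-likelihood test), and it ran from -0.63 to -0.45 with each library left out, with unadjusted p up to 0.129. Efnb3, an ephrin-B ligand, had 1.37, 1.82 and 0.521 RPKM in siNC and 1.47, 1.68 and 1.17 RPKM in siQk, a log2 fold change of 0.21 (SE 0.52) in which siNC replicate 3 alone was low. Efnb2 had 0.423, 0.479 and 0.366 RPKM in siNC and 0.584, 0.341 and 0.618 RPKM in siQk, with overlapping groups and a log2 fold change of 0.26 (SE 0.28).

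**Figure D3:**
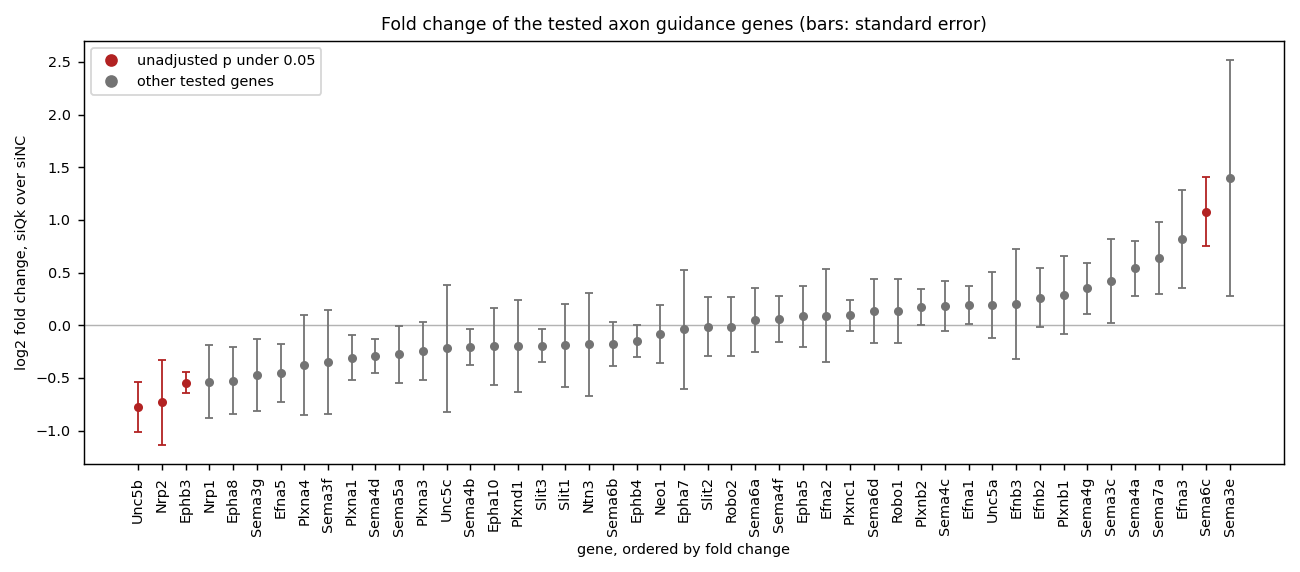
Log2 fold change of siQk over siNC for the 47 guidance genes tested, ordered by size, with bars for the standard error from the spread between libraries. Unc5b, Nrp2 and Ephb3 at the low end and Sema6c near the high end (red) had an unadjusted p under 0.05, and Sema3e, with the highest value, has the longest bar.

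Taking the 47 tested guidance genes as a group, 21 had a higher and 26 a lower mean log2 level in siQk, and their median log2 fold change was -0.039 against 0.0034 for all 12665 genes tested. No guidance gene was called at p under 0.01 and adjusted p under 0.1 in the edgeR quasi-likelihood test (0 of 47, where 0.0079% of all genes were called, Qk alone). At an unadjusted p under 0.05 there were 4 of 47 (8.51%), namely Sema6c on the higher side and Unc5b, Nrp2 and Ephb3 on the lower, against a background of 2.89% of all genes, 1.2% higher and 1.69% lower. DESeq2 called 0 guidance genes where it called 0.15% of all genes, with 6 at an unadjusted p under 0.05 (12.8%, all genes 3.63%). The edgeR exact test called 0 where it called 0.0395% of all genes, with 5 at an unadjusted p under 0.05 (10.6%, all genes 3.32%). With no filter on low counts the count at an unadjusted p under 0.05 was 7 of 63 (11.1%, all genes 3.27%), without siNC replicate 1 it was 10 of 47 (21.3%, all genes 4.26%), and with the replicate number as a block 5 of 47 (10.6%, all genes 3.53%). With total counts in place of TMM it was 3 of 47 (6.38%, all genes 2.92%), without siNC replicate 2 it was 2 of 47 (4.26%, all genes 3.25%), and without siNC replicate 3 and siQk replicate 2 together 4 of 47 (8.51%, all genes 6.19%). Each of these fits called 0 guidance genes. Groups that did not overlap were found for 4 of 47 (8.51%), which is near the 8.84% of all genes, with 2 higher against a background of 5.35% and 2 lower against 3.49%.

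The guidance genes spread widely between libraries of the same group. The median SD of log2 CPM within a group was 0.388 in siNC and 0.318 in siQk for the 47 tested, against 0.265 and 0.202 for all genes tested, while their median level was much the same (5.02 against 5.11 on the log2 CPM scale). Log2 fold changes of at least 0.5 in size were found for 10 of 47 (21.3%) against 6.48% of all genes. The 5 with the largest spread were Sema3e, Unc5c, Efnb3, Epha7 and Plxna4, and 7 of the 47 differed by at least 3 times in RPKM between their highest and lowest library.

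**Figure D4:**
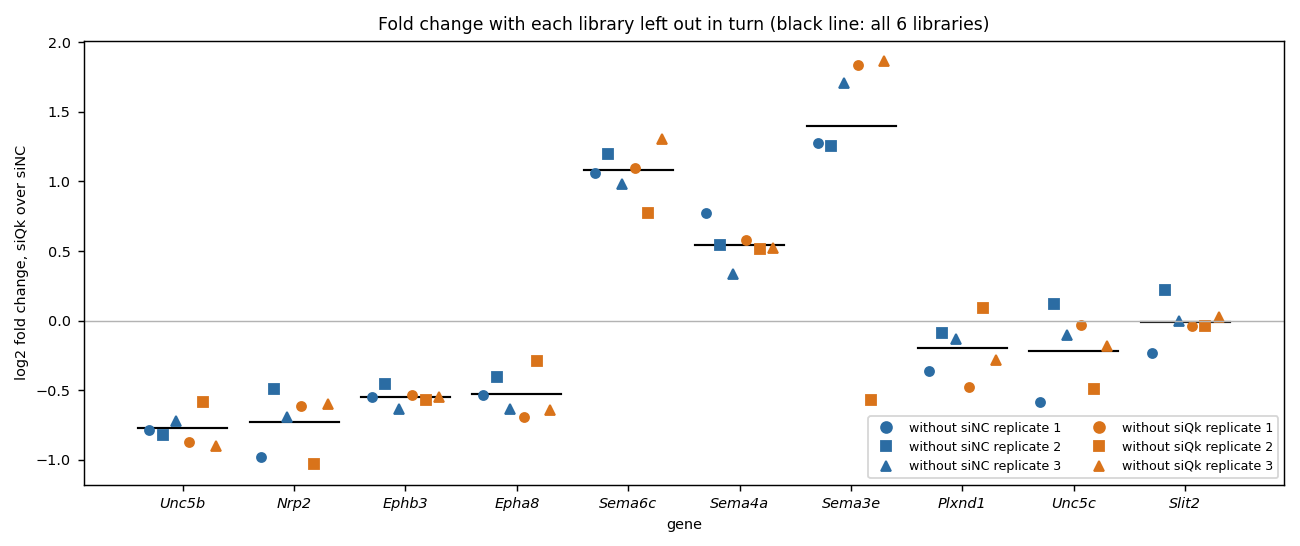
Log2 fold change of siQk over siNC for 10 guidance genes with each library left out in turn, the black line giving the value with all 6. The points of Unc5b, Nrp2, Ephb3, Epha8, Sema6c and Sema4a stay on the same side of 0, while those of Sema3e, Plxnd1, Unc5c and Slit2 fall on both sides.

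The control library siNC replicate 2 stood apart in the guidance genes. They took 0.408% of all counts in siNC replicate 2 and 0.301% to 0.325% in the other 5 libraries, and 21 of the 47 tested (44.7%) had their highest log2 CPM in siNC replicate 2, against 14.6% of all genes. The deviation was larger in genes with long transcripts. The deviation of siNC replicate 2 was taken from the gene's mean over the other 5 libraries, on the log2 CPM scale. For guidance genes with at least 8000 bases of exon (13 genes) its median was 0.49, against 0.151 for all 930 tested genes of that length. For shorter guidance genes it was 0.219 against -0.012. Across genes, the correlation of this deviation with log2 exon length was 0.523 over the 47 guidance genes and 0.145 over all genes tested in siNC replicate 2, 0.543 and 0.218 in siNC replicate 3, and -0.397 and -0.278 in siNC replicate 1. In siQk replicates 1, 2 and 3 it was -0.422, -0.0267 and -0.346 over the guidance genes and -0.0715, -0.0031 and -0.0983 over all genes. These are descriptions across genes that share a library, and the 8000-base limit was chosen after the values were seen. Without siNC replicate 2 the median log2 fold change of the guidance genes was 0.048 in place of -0.039, and the genes at an unadjusted p under 0.05 were Unc5b and Sema6c. Whether transcript length or RNA quality has a part in the fold changes was not tested.

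**Figure D5:**
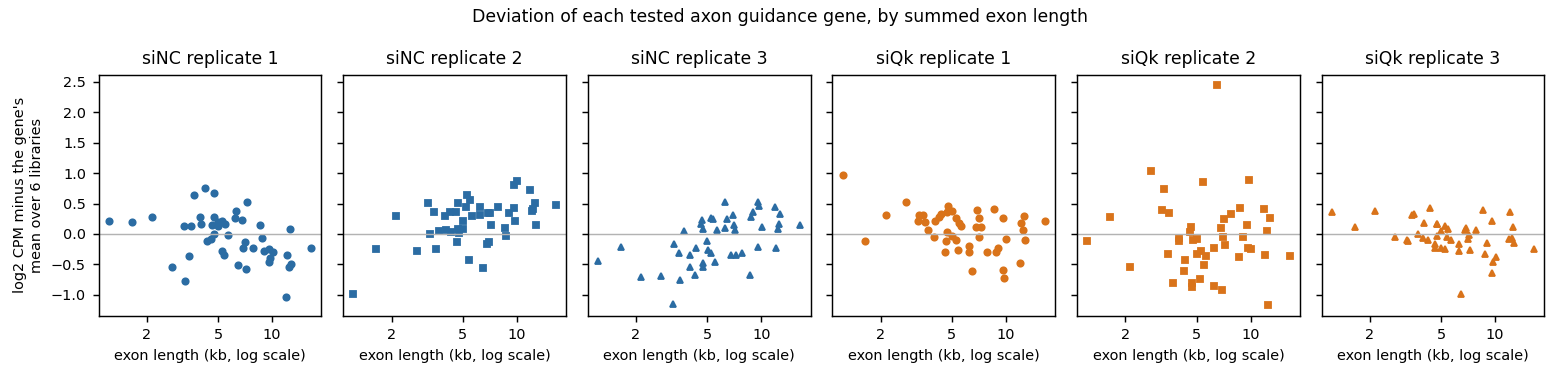
Deviation of each tested guidance gene from its mean over 6 libraries (log2 CPM) against its summed exon length in kilobases (log scale), with a panel for each library. In siNC replicates 2 and 3 the points run upward with length, and in siNC replicate 1 and siQk replicates 1 and 3 downward.

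Of the intracellular partners relaying these signals (collapsin response mediators, kinases and regulators of the cytoskeleton among them), 55 of 61 listed genes were tested. The edgeR quasi-likelihood test called 0 of the 55, beside a background of 0.0079% over the 12665 genes tested. It put 0 of the 55 at an unadjusted p below 0.05, beside a background of 2.89%. DESeq2 called 0 of them too (background 0.15%), with 1 of 55 at an unadjusted p below 0.05 (background 3.63%). The edgeR exact test also called 0 of these genes (background 0.0395%), with 1 of 55 at an unadjusted p below 0.05 (background 3.32%). Their median log2 fold change was -0.010, with 26 higher and 29 lower. Dpysl3, a collapsin response mediator, and Farp1, a partner of plexin-A receptors, were among those with the smallest p. Dpysl3 averaged 308 ± 47.1 RPKM in siNC against 243 ± 25.2 RPKM in siQk, a log2 fold change of -0.37 (SE 0.18) that was -0.21 without siNC replicate 3, and Farp1 10.2 ± 0.893 and 7.71 ± 1.96 RPKM, a log2 fold change of -0.44 (SE 0.21).

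Of other genes with a guidance role, such as adhesion molecules, morphogen coreceptors and growth factors, 22 of 35 listed were tested. Their median log2 fold change was -0.049, and 0 were called in the edgeR quasi-likelihood test (all genes 0.0079%). Cdon, a coreceptor for Hedgehog proteins and netrins, was the only gene of that list at an unadjusted p under 0.05 in that test (1 of 22, all genes 2.89%), while DESeq2 (all genes 3.63%) and the edgeR exact test (all genes 3.32%) had 2 of 22 each, Cdon and Vegfa. Cdon had 5.22, 5.15 and 5.12 RPKM in siNC and 2.70, 2.54 and 3.22 RPKM in siQk. The groups were widely separated, and the log2 fold change was -0.90 (SE 0.11, adjusted p = 0.9996 by the edgeR quasi-likelihood test, 0.0725 by the edgeR exact test and 0.0082 by DESeq2). Vegfa, a ligand that neuropilins also bind, averaged 52.7 ± 10.9 RPKM in siNC and 37.1 ± 10.6 RPKM in siQk with a log2 fold change of -0.54 (SE 0.31, unadjusted p = 0.050 by the edgeR quasi-likelihood test, 0.0368 by the edgeR exact test, 0.0361 by DESeq2 and 0.0095 with the replicate block). Without siNC replicate 3 and siQk replicate 2 together the log2 fold change of Vegfa was -0.28 (unadjusted p = 0.305), and the unadjusted p was 0.116 to 0.159 without siNC replicate 1, siNC replicate 3, siQk replicate 2 or siQk replicate 3. L1cam, an adhesion molecule that binds neuropilin-1, averaged 52.2 ± 11.0 and 40.8 ± 9.69 RPKM with a log2 fold change of -0.37 (SE 0.27) and with -0.19 when siQk replicate 2 was left out.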

How the data were processed

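The authors selected poly-A RNA, prepared libraries with an unstranded TruSeq kit, sequenced paired reads, and used OLego for the alignment and Quantas for the counts of each gene. The mouse genome is named inconsistently in the sources (mm10 in the submitters' processing notes), and the files carry no coordinates. The deposited files hold an expected count per gene, of which 21.8% to 22.9% were not whole (tolerance 1e-06), and the authors' RPKM, which could be rebuilt from the expected count, the exon length and the column total (largest relative deviation 7.7e-14).

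Expected counts were rounded, and genes with an edgeR average log2 CPM above 0 were kept (12665). A plain mean of log2 CPM was tried first and gave the same 4 guidance genes at an unadjusted p under 0.05. TMM scaling (factors 0.956 to 1.02) was followed by the quasi-likelihood test in edgeR 4.0.16 (R 4.3.3), siQk against siNC with no other term. A call needed p under 0.01 together with an adjusted p (Benjamini-Hochberg, over all genes tested) under 0.1. Standard errors come from the spread of log2 CPM (prior count 2) between libraries, whereas the test's p also draws on the spread of other genes, so the pair can differ. RPKM groups were compared by a two-sided exact permutation test. Counting error is small for the abundant genes but not for the scarcest ones named, such as Ntn5 with 3 to 33 counts per library. For all genes, 3 libraries per group limit precision. Positions and 3′ untranslated regions come from GENCODE mouse release 21 (GRCm38), matched for 70 of 70 genes on the Entrez identifier or symbol, of which 4 share over 10% of their exonic bases with another gene.

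The guidance genes, the other lists and the tests were chosen with earlier results of these data known. Genes named by rule were Qk, guidance genes called, at an unadjusted p under 0.05 or without overlap, the 2 most abundant per family, the 5 with the largest spread, and from the list of relaying genes and the list of other guidance genes those called plus up to 3 with the smallest p. A gene that this rule chose is not reported here. Other genes named were chosen after their values were seen. Alternatives were other scalings, filters and tests (DESeq2 1.42.0 among them), a replicate block, and fits without some libraries. The code was tested on simulated data. Same-numbered libraries deviated together with correlations of 0.213, 0.018 and -0.17, and cultures were therefore not treated as paired.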

Additional observations from a re-analysis of the deposited data

How the results depend on the processing

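The count of guidance genes called was 0 in all 16 alternatives, as was that of the relaying genes. At an unadjusted p under 0.05 the count of 4 was 7 with no filter on low counts, where 63 guidance genes were tested, and 2 to 10 with each library left out (2 without siNC replicate 2, 10 without siNC replicate 1). With the replicate number as a block it was 5, with 0 called. Of the 22 other guidance genes tested, 1 was called (Cdon, log2 fold change -0.90) by DESeq2 (all genes 0.15%), the edgeR exact test (all genes 0.0395%) and the edgeR likelihood-ratio test. The median log2 fold change of guidance genes ran from -0.129 without siNC replicate 3 and siQk replicate 2 to 0.048 without siNC replicate 2. A single library's median over the guidance genes had an SD of 0.149 between libraries, which is not the spread of a fold change. Of 544 refits of the 34 genes that the naming rule chose 35 changed sign, in 13 genes. With each library left out, log2 fold changes ran from -0.18 to 0.33 (Efna2), -0.15 to 0.56 (Efnb3), -0.43 to 0.066 (Epha10), -0.74 to 0.24 (Epha7), -0.38 to 0.045 (Neo1), -0.42 to 0.17 (Ntn3), -0.48 to 0.094 (Plxnd1), -0.021 to 0.40 (Robo1), -0.22 to 0.15 (Robo2), -0.57 to 1.87 (Sema3e), -0.0096 to 0.32 (Sema4c), -0.23 to 0.22 (Slit2) and -0.59 to 0.12 (Unc5c). Without siNC replicate 3 and siQk replicate 2 they were -0.27 (Efnb3), 0.17 (Plxnd1), 0.014 (Robo2) and -0.26 (Sema3e). The sign held but the size moved by over 1.5 times with a library left out for 13 of the 34, including Slit3 (-0.30 to -0.093), Sema4d (-0.40 to -0.18), Ephb4 (-0.25 to -0.080) and Efnb2 (0.099 to 0.48). With the replicate block fold changes were 0.016 (Robo2) and 0.035 (Slit2), and with total counts 0.017 and 0.0090. Qk was not called without siNC replicate 1 (log2 fold change -3.09, adjusted p 0.125 by the edgeR quasi-likelihood test). The cause was not tested. The 39 guidance genes at 1 RPKM or more became 43 at 0.5 RPKM.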
